A study of Mus musculus with 6 samples.

Results

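Oxidative phosphorylation genes encode the nuclear subunits of the mitochondrial respiratory chain and of ATP synthase. They were taken here as the genes with a probe set that names only that gene and whose symbol begins with Nduf, Uqcr, Atp5 or Cox4 to Cox8, is one of Sdha to Sdhd, or is Cyc1 or Cycs. The rule found 92 genes, on 184 probe sets, of the 18193 genes measured on the arrays. Of these, 76 are ubiquitous respiratory chain genes, 8 are assembly factors of complex I, 3 are the striated muscle isoforms Cox6a2, Cox7a1 and Cox8b, and 5 are other tissue-restricted isoforms. The rule uses gene symbols only, although it was chosen with earlier results of these data known.

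The study compared endosteal RNA with central marrow RNA of femoral shafts from 3 male C57BL/6 mice that were 8 weeks old and had received saline by intraperitoneal injection. No other genotype or agent is given, and saline was given in both groups. There were 3 endosteal and 3 central arrays, each set lettered A, B and C. Per the labels' protocols the central samples are marrow cells flushed from shafts that had been scraped and rubbed free of muscle and periosteum, and the endosteal samples are what was then lysed inside the emptied shaft, so neither is a single cell type.

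In mitochondria, complexes I to IV pass electrons from NADH and succinate to oxygen and pump protons across the inner membrane, and complex V, the ATP synthase, uses the proton gradient to make ATP. Most subunits are made in every nucleated cell. Cytochrome c oxidase, which is complex IV, exchanges a few of its small subunits for tissue isoforms: in heart and skeletal muscle, Cox6a2, Cox7a1 and Cox8b take the place of Cox6a1, Cox7a2 and Cox8a.

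The endosteal and central labels were checked against marker genes. Of 8 measured bone genes, 6 were called higher in endosteal RNA (median log2 change 3.69), and Col1a1, the main collagen chain of bone, averaged 20221 ± 4106 on endosteal arrays and 238 ± 68.9 on central arrays (SD, n = 3 each). Of 7 B lymphocyte genes, 3 were called lower (median log2 change -0.85). The endosteal arrays also carried skeletal muscle RNA: all 20 skeletal muscle genes were called higher, with a median log2 change of 5.45 and a summed signal of 87821 to 180670 on endosteal arrays, against 1444 to 2104 on central arrays. Here a log2 change is the endosteal minus the central mean of log2(signal + 16), genes with an adjusted p under 0.05 in limma, over all genes, are called higher or lower, and signals are in the arrays' linear units. In bulk RNA, fewer cells of a type and less RNA per cell cannot be told apart.

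On the log2(signal + 16) scale the muscle isoforms had the largest changes of the 92 genes; with a pseudocount of 1, the dim genes Cox7b2 (2.15) and Ndufa4l2 (1.78) exceeded Cox6a2 (1.59), though neither was called. Cox6a2, the muscle form of subunit 6A, had signals of 2613, 1897 and 1186 on endosteal arrays A to C, against 585, 529 and 691 on the central arrays in the same order. Cox7a1, the muscle form of subunit 7A, had 1379, 947 and 754 on the endosteal arrays, against 63.1, 47.5 and 77.4 on the central arrays. Cox8b, the muscle form of subunit 8, had 2366, 1512 and 1045 on the endosteal arrays, against 29.7, 7.95 and 70.6 on the central arrays. For each of the 3 isoforms every endosteal array lay above every central array, endosteal array A was the highest and endosteal array C the lowest of the endosteal arrays.

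Genes called higher made up 7.92% of all genes tested and genes called lower 4.02%, and all 3 muscle isoforms were called higher. The log2 change of Cox8b was 5.10 (SE 0.54, adjusted p = 0.00749, 34.4-fold), with means of 1641 ± 670 on endosteal arrays and 36.1 ± 31.8 on central arrays (SD, n = 3 each). Cox7a1 had a change of 3.70 (SE 0.27, adjusted p = 0.00333, 13.0-fold), with means of 1027 ± 320 and 62.7 ± 14.9 on endosteal and central arrays. Cox6a2 had a change of 1.57 (SE 0.31, adjusted p = 0.0329, 2.97-fold), with means of 1899 ± 714 and 602 ± 82.3 on endosteal and central arrays. The fold values are on the log2(signal + 16) scale, which understates the change of a gene as dim as Cox8b was on the central arrays. The 3 isoforms thus spanned a wide range of change, with Cox6a2, on its brightest probe set, well above the dim end of the arrays in central RNA too.

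A second, dimmer probe set for Cox6a2 gave 740, 492 and 324 on endosteal arrays A to C, against 161, 84.1 and 113 on central arrays, and a log2 change of 1.95. Both probe sets therefore placed all endosteal arrays above all central arrays. Cox7a1 and Cox8b were each measured by 1 probe set. With the array letter as a block, which treats same-lettered arrays as pairs, Cox7a1 was called (adjusted p = 0.0499), whereas Cox8b and Cox6a2 were not (adjusted p = 0.0575 and 0.101). The call of Cox6a2 was also lost on leaving out any 1 array other than endosteal array C, with adjusted p between 0.0615 and 0.106 and log2 changes between 1.30 and 1.67.

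The promoters of Cox7a1 and Cox8b are shown because these genes had the largest changes. The 250 bases before the annotated start are printed 5′ to 3′ on the gene's strand, from RefSeq on GRCm38.p6, for Cox7a1 (chr7:30183921-30184170, plus strand) and Cox8b (chr7:140900447-140900696, minus strand). Capitals mark matches to the E-box CANNTG, searched on both strands.
Cox7a1: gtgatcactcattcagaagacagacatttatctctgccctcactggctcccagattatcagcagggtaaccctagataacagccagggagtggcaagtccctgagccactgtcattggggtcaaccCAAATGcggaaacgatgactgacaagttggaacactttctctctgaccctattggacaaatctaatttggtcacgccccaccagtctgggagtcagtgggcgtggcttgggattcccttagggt
Cox8b: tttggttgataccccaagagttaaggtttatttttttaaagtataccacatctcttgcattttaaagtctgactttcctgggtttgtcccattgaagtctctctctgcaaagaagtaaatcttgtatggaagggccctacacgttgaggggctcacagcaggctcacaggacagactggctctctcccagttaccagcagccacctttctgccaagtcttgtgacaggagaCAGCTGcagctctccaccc
The window of Cox8b held an E-box of the form CAGCTG, from 19 to 14 bases before the start, and that of Cox7a1 held an E-box of another form, from 124 to 119 bases before it. Of 32851 windows of all genes, 66.2% held CANNTG and 13.0% held CAGCTG, which is one of its forms. Neither window matched the MEF2 motif, which was in 2.92% of all windows. A match is a description of letters and not a binding site. No window was given for Cox6a2.

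**Figure D1:**
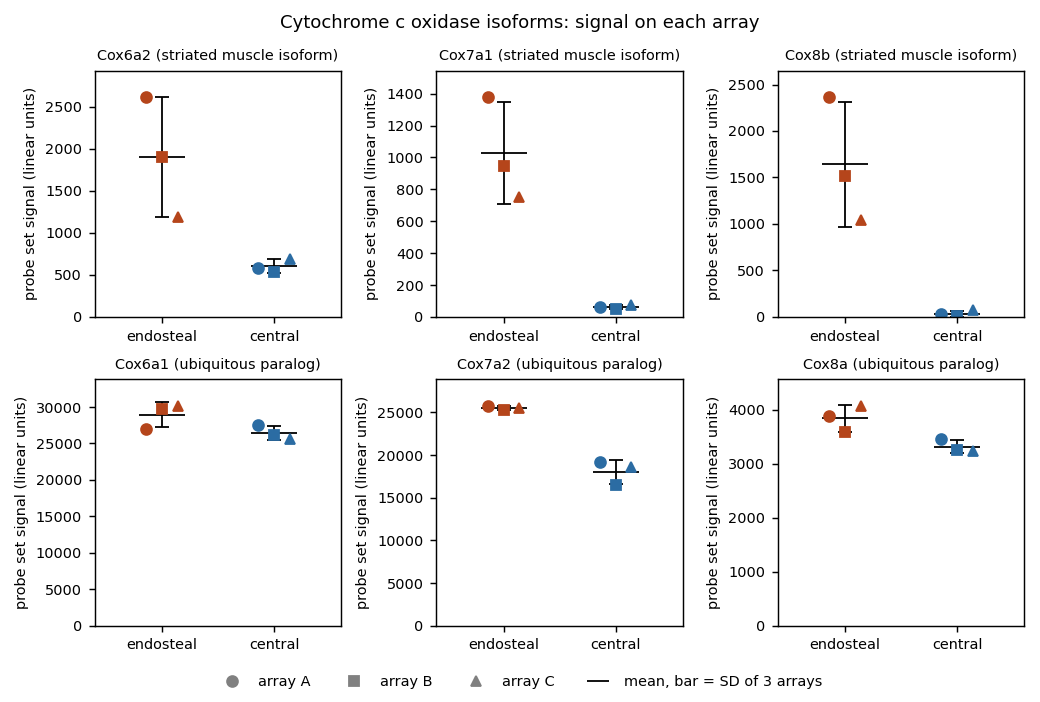
Probe set signal in linear units on each endosteal and central array for the muscle isoforms Cox6a2, Cox7a1 and Cox8b (upper row) and their ubiquitous paralogs Cox6a1, Cox7a2 and Cox8a (lower row). Points are arrays A, B and C, long bars the mean and whiskers the SD of 3 arrays; Cox8b averaged 1641 on endosteal and 36.1 on central arrays, whereas Cox8a averaged 3843 and 3316 on them.

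The ubiquitous paralogs of the same subunits had smaller changes. Cox6a1, which fills the 6A position outside striated muscle, had 26942, 29760 and 30177 on endosteal arrays A to C, against 27542, 26127 and 25594 on central arrays, so the groups overlapped on this brightest probe set. A second, dimmer probe set for Cox6a1 did not overlap and gave a change of 0.37. It had 8749, 9212 and 10033 on endosteal arrays, against 7255, 7079 and 7327 on central arrays. Cox7a2 had 25778, 25317 and 25572 on the endosteal arrays, against 19163, 16443 and 18544 on the central arrays. Cox8a had 3880, 3578 and 4072 on the endosteal arrays, against 3454, 3250 and 3243 on the central arrays. For Cox7a2 and Cox8a every endosteal array was above every central array, but neither was called: the log2 changes were 0.50 for Cox7a2 (adjusted p = 0.0537) and 0.21 for Cox8a (adjusted p = 0.309), beside 0.13 for Cox6a1 (adjusted p = 0.524). Cox7a2l, a 7A-like protein, had a change of 0.10 (adjusted p = 0.673).

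The change of each muscle isoform was set against that of its paralog, since levels of different probe sets cannot be compared. Each gene was taken by its brightest probe set. The difference between the 2 changes was 1.44 (SE 0.39) for Cox6a2 over Cox6a1, 3.20 (SE 0.27) for Cox7a1 over Cox7a2, and 4.89 (SE 0.65) for Cox8b over Cox8a. In each of the 3 pairs the per-array difference was higher on all 3 endosteal arrays than on any central array. The exact two-sided permutation test gave p = 0.1 for each pair, which is the smallest p that 3 against 3 arrays allow, and 0.1 after adjustment over the 3 pairs.

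The order of the endosteal arrays for the isoforms, A highest and C lowest, was also that of 17 of the 20 skeletal muscle genes, the other 3 being Ckm, Myl1 and Ryr1. The median shift of the 20 skeletal muscle genes from the central mean was 6.20, 5.36 and 5.01 on endosteal arrays A to C, and that of the 3 isoforms was 4.17, 3.63 and 3.31. Ckmt2, the creatine kinase of muscle mitochondria, had 2354, 1346 and 673 on endosteal arrays, against 7.16, 8.82 and 19.3 on central arrays. Genes of slow fibres had another order: the median shift of 8 of them was 3.92, 4.10 and 1.18 on endosteal arrays A to C, so array C stood lower, with 2 of the 8 called, Myl3 and Tnni1. Their summed signal was 6012 to 17187 on endosteal arrays and 4473 to 4938 on central arrays.

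Marker genes of heart, which uses these isoforms, and of brown fat, which is rich in mitochondria, showed no called change. Of 8 heart muscle genes 0 were called by limma, and their summed signal was 724 to 1106 on endosteal arrays and 1072 to 1512 on central arrays. Most of that sum came from Myl4, an atrial myosin light chain, which had 301, 484 and 951 on endosteal arrays A to C, against 785, 935 and 1372 on central arrays (change -0.93, adjusted p = 0.241). Myh6, the cardiac myosin heavy chain, averaged 24.0 ± 8.01 on endosteal and 12.8 ± 13.2 on central arrays (SD, n = 3 each). Of 8 brown fat genes 0 were called, their summed signal was 492 to 799 on endosteal arrays and 333 to 501 on central arrays, and Dio2, a deiodinase that activates thyroid hormone, averaged 300 ± 123 and 219 ± 28.1 on endosteal and central arrays. Ucp1, which uncouples respiration in brown fat, averaged 10.7 ± 2.85 and 19.5 ± 18.4 on endosteal and central arrays. Elovl3 had the largest change of the brown fat list, 0.88 (adjusted p = 0.0858). Its signals were 108, 131 and 125 on endosteal arrays A to C, against 88.9, 55.2 and 38.7 on central arrays, without overlap. The part of muscle RNA in the isoform changes was not tested.

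The remaining tissue-restricted isoforms showed no called change. Cox4i2, a hypoxia-responsive form of subunit 4 found in lung, had 117, 121 and 92.3 on endosteal arrays A to C, against 90.2, 71.5 and 8.52 on central arrays, and its log2 change was 1.04 (SE 0.57, adjusted p = 0.294). The groups did not overlap for Cox4i2, the only one of the 5 for which this held. Ndufa4l2, a hypoxia-induced relative of Ndufa4, had 19.3, 86.0 and 113 on the endosteal arrays, against 20.9, 10.1 and 19.3 on the central arrays (change 1.26, adjusted p = 0.173), with endosteal array A among the central values. The testis forms Cox7b2, Cox6b2 and Cox8c had changes of 1.11, 0.14 and 0.12, with adjusted p of 0.171, 0.651 and 0.862, and Cox7b2 was dim on every array, between 3.33 and 60.2.

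Most ubiquitous respiratory chain genes had a somewhat higher signal in endosteal RNA. Of the 76 genes, 24 were called higher (31.6%, against 7.92% of all genes and 8.71% of genes above the median level), 0 were called lower and 52 were not called. In the fit with the array letter as a block 0 of the 76 were called, and 0.786% of all genes were called higher. By limma without adjustment 52 of the 76 had p under 0.05, and 42 in the block fit. No share of all genes at that unadjusted threshold is given here, so these counts have no background beside them. For 65 of the 76 every endosteal array was above every central array, against 22.3% of all genes and 26.2% of genes above the median level. For 11 the groups overlapped, and for 0 did every endosteal array lie below the central arrays, against 15.4% of all genes.

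The median log2 change of the 76 genes was 0.43, that is 1.34-fold, with quartiles of 0.26 and 0.58, against 0.10 for all genes and -0.01 for genes above the median level. The median shift of the 76 from the central mean on arrays A, B and C was 0.48, 0.37 and 0.43 in endosteal RNA, against 0.037, -0.035 and -0.003 in central RNA. All 3 endosteal arrays thus shared the shift. Marker lists whose median moved in the same direction were those of bone, endothelium (6 of 8 called higher, median 2.12), osteoclasts (6 of 8 called higher and 1 lower, median 1.95), neutrophils (3 of 9 called higher and 1 lower, median 0.55) and white fat (2 of 6 called higher, Adipoq and Fabp4, median 0.61). In the white fat list Lipe (-0.60) and Retn (-0.54) pointed lower, and neither was called. The part of these lists in the shift, like that of muscle, was not tested. The change was above 0 for 72 of the 76 genes and, when array medians were set equal, for 56 of them. The SD of the change over the 76 genes was 0.25 and the median SE of 1 gene was 0.12. Across the 76 genes the change had a Spearman correlation of -0.12 with the mean signal and a Pearson correlation of 0.18 with its log2 value, given as a description over genes that share the same arrays.

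**Figure D2:**
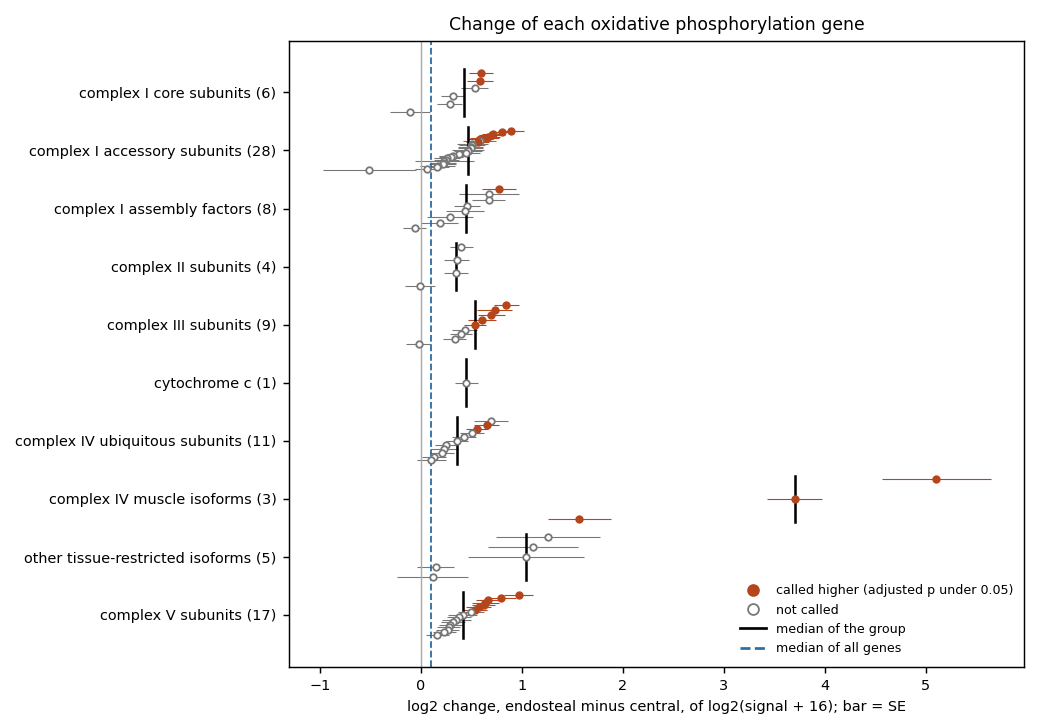
Log2 change (endosteal minus central, with SE) of each of the 92 oxidative phosphorylation genes by group, with the number of genes in parentheses. Filled points were called higher by limma, open points were not, black bars mark group medians and the dashed line the median of all genes (0.10); the 3 muscle isoforms lie to the right of 1.5 and 72 of the 76 ubiquitous genes lie above 0.

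Complex I, the NADH dehydrogenase, is the largest complex of the chain. Of its 6 measured core subunits, which include those that carry the redox centres, 2 were called higher, the median change was 0.42, and 5 had endosteal arrays all above the central ones. Ndufv2, a core iron-sulphur subunit, had 7838, 7283 and 8221 on endosteal arrays A to C, against 5179, 5238 and 4983 on central arrays, and Ndufs7, the subunit next to the quinone site, had 5238, 4562 and 4385 against 3055, 3229 and 3128. Neither gene's groups overlapped, and the changes were 0.60 for Ndufv2 (adjusted p = 0.0330) and 0.59 for Ndufs7 (adjusted p = 0.0417). Ndufs8, the exception among the core subunits, had 8422, 6925 and 10953 on the endosteal arrays, against 8662, 9186 and 10071 on the central arrays, a change of -0.11 (adjusted p = 0.763). That value comes from the brightest of 6 probe sets for Ndufs8, and the other 5 gave changes between 0.21 and 0.57.

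Of the 28 accessory subunits of complex I, which surround the core, 8 were called higher, 23 had endosteal arrays all above the central ones, and the median change was 0.47. Ndufc1, a small membrane-arm subunit, had 8150, 6943 and 6795 on endosteal arrays A to C, against 3983, 3898 and 3888 on central arrays, with a change of 0.89 (SE 0.13, adjusted p = 0.0157). Its lowest endosteal array was well above its highest central array, and a second probe set gave 0.73. Ndufb2 had 4123, 3781 and 3808 on the endosteal arrays, against 2391, 2088 and 2227 on the central arrays, a change of 0.80 (adjusted p = 0.0180). Ndufab1, the mitochondrial acyl carrier protein, had 5436, 5378 and 5283 on the endosteal arrays, against 3188, 3360 and 3242 on the central arrays, a change of 0.71 (adjusted p = 0.0183). For both the groups lay apart by many times their spread. Ndufa5, Ndufc2, Ndufa13, Ndufa12 and Ndufb6 were the others called, with changes between 0.56 and 0.70.

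Ndufa1, the accessory subunit with the highest signal, averaged 13741 ± 455 on endosteal and 12359 ± 883 on central arrays (SD, n = 3 each; change 0.15, adjusted p = 0.457), and its groups overlapped. Ndufb4 had the lowest change of the 76, -0.51 (adjusted p = 0.519), on a probe set that was dim on every array, between 10.3 and 68.3.

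The 8 complex I assembly factors, which build the complex and are no part of it, had a median change of 0.45. Of these, 1 was called higher: Ndufaf6 had 290, 310 and 269 on endosteal arrays A to C, against 201, 137 and 155 on central arrays, a change of 0.77 (adjusted p = 0.0427). Every endosteal array of Ndufaf6 was above every central array, which held for 3 of the 8, against 22.3% of all genes. Ndufaf8, the factor with the highest signal, had a change of 0.18 (adjusted p = 0.561).

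Complex II, succinate dehydrogenase, also belongs to the tricarboxylic acid cycle. Of its 4 subunits 0 were called, at a median change of 0.35. By limma 3 had an unadjusted p under 0.05, again without a share of all genes beside it. Sdha, the catalytic flavoprotein, had 5582, 5556 and 5910 on endosteal arrays A to C, against 4269, 4480 and 4181 on central arrays (change 0.40, adjusted p = 0.0794). A second bright probe set for Sdha overlapped between regions (change 0.11), and the dimmer ones gave -0.33 and 0.12. Sdhb, its iron-sulphur partner, had 6708, 6639 and 6654 on the endosteal arrays, against 5626, 4706 and 5354 on the central arrays (change 0.35, adjusted p = 0.131). The membrane anchor Sdhd had a change of 0.35 and likewise did not overlap, whereas the anchor Sdhc had 2763, 2671 and 2164 on the endosteal arrays, against 2674, 2548 and 2390 on the central arrays, and overlapped (change -0.01).

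Complex III, which passes electrons from ubiquinol to cytochrome c, had the highest median change of the groups of ubiquitous subunits, 0.53, with 5 of 9 genes called higher and 8 of 9 without overlap. Uqcr11, its smallest subunit, had 4475, 3823 and 4263 on endosteal arrays A to C, against 2355, 2233 and 2363 on central arrays, a change of 0.85 (SE 0.12, adjusted p = 0.0161). Uqcr10 had 3811, 3667 and 4164 on the endosteal arrays, against 2632, 2157 and 2391 on the central arrays (change 0.70, adjusted p = 0.0324). Uqcrq had 4573, 3547 and 4266 on the endosteal arrays, against 2879, 2189 and 2382 on the central arrays (change 0.73, adjusted p = 0.0499). The groups lay apart for all 3 of these small subunits, and Uqcrq stood at the edge of the threshold.

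Uqcrb, the complex III subunit with the highest signal, had 34279, 33659 and 33724 on endosteal arrays A to C, against 23868, 23379 and 23092 on central arrays, a change of 0.53 (adjusted p = 0.0365). Its replicates lay close together in both groups. The core protein Uqcrc1 overlapped between regions, at 4465, 3791 and 4384 on the endosteal arrays, against 4384, 4125 and 4313 on the central arrays (change -0.02, adjusted p = 0.923). Cycs, cytochrome c itself, had 20271, 20205 and 18844 on the endosteal arrays, against 14179, 14232 and 15000 on the central arrays. Its groups did not overlap, and its change of 0.45 missed the threshold (adjusted p = 0.0600).

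Complex IV had 2 of its 11 ubiquitous subunits called higher, at a median change of 0.36, and 8 of the 11 without overlap. Cox5b, a nuclear-encoded subunit on the matrix side, had 20189, 21418 and 22774 on endosteal arrays A to C, against 14662, 13368 and 12966 on central arrays (change 0.65, adjusted p = 0.0305). Cox6c had 17485, 17117 and 17183 on the endosteal arrays, against 12033, 11602 and 11570 on the central arrays (change 0.56, adjusted p = 0.0330). On these brightest probe sets both lay well apart between regions, whereas Cox6a1, the complex IV subunit with the highest signal, overlapped. The contrast depended on the probe set. A second probe set for Cox6c overlapped (change 0.19), and the second for Cox6a1 did not (0.37). Other bright probe sets for Cox5b gave 0.71, 0.52 and 0.15, the last with overlap, and those below the median level gave 0.40 and -0.46.

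By the brightest probe set of each gene, 17 of 17 complex V genes had all endosteal arrays above all central arrays. Apart from the muscle isoforms, no other group of more than 1 gene had this for every member. The separation depended on the probe set. Other probe sets for Atp5d (change -0.005) and Atp5pb (0.08) overlapped, and a much dimmer one for Atp5j2 (-0.59) had all endosteal arrays below the central ones. Of the 17 genes 7 were called higher, and the median change was 0.41. Atp5g1, one of several genes for the proton-carrying c subunit, had 5316, 4291 and 4120 on endosteal arrays A to C, against 2285, 2380 and 2279 on central arrays, a change of 0.97 (SE 0.15, adjusted p = 0.0172). This was the largest change among the 76. Atp5md had 2667, 3047 and 2928 on the endosteal arrays, against 1885, 1446 and 1645 on the central arrays (change 0.80, adjusted p = 0.0293), and Atp5e, the epsilon subunit of the central stalk, had 7092, 6460 and 7298 against 4430, 4346 and 4354 (change 0.66, adjusted p = 0.0254). Atp5h, the complex V subunit with the highest signal, averaged 20471 ± 133 on endosteal and 16746 ± 885 on central arrays (SD, n = 3 each) and was not called (change 0.29, adjusted p = 0.162).

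The promoters of Atp5g1, Ndufc1 and Uqcr11 are shown for comparison with those of the muscle isoforms, since these 3 genes had the largest changes among the 76. The windows again hold the 250 bases before the start on the gene's strand, from RefSeq on GRCm38.p6, for Atp5g1 (chr11:96075632-96075881, minus strand), Ndufc1 (chr3:51408956-51409205, minus strand) and Uqcr11 (chr10:80406822-80407071, minus strand). Capitals mark the E-box CANNTG or the ETS core CCGGAAG, on either strand.
Atp5g1: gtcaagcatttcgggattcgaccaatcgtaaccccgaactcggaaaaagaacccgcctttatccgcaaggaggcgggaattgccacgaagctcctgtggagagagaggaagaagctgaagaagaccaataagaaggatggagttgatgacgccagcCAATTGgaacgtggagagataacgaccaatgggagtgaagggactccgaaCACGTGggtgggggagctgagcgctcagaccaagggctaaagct
Ndufc1: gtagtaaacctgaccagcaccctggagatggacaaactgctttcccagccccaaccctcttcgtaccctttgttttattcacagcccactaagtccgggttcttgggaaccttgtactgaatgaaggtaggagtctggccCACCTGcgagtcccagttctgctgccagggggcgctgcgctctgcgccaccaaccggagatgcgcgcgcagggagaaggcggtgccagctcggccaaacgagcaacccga
Uqcr11: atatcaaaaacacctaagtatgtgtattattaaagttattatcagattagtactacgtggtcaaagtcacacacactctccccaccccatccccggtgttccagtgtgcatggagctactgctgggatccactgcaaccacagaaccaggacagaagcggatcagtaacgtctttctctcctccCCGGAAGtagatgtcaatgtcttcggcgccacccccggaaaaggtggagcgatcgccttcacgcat
Atp5g1 held an E-box pair, Ndufc1 held 1 E-box, and Uqcr11 held 1 ETS core from 66 to 60 bases before the start. In 69 windows of 64 ubiquitous respiratory chain genes, 17.4% held the ETS core, 60.9% CANNTG, 7.25% the ERR element AAGGTCA and 8.70% the NRF1 motif, against 6.91%, 66.2%, 4.08% and 1.83% of all windows. The MEF2 motif was in 0 of the 69. None of the 3 printed windows matched AAGGTCA, the NRF1 motif or the MEF2 motif.

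**Figure D3:**
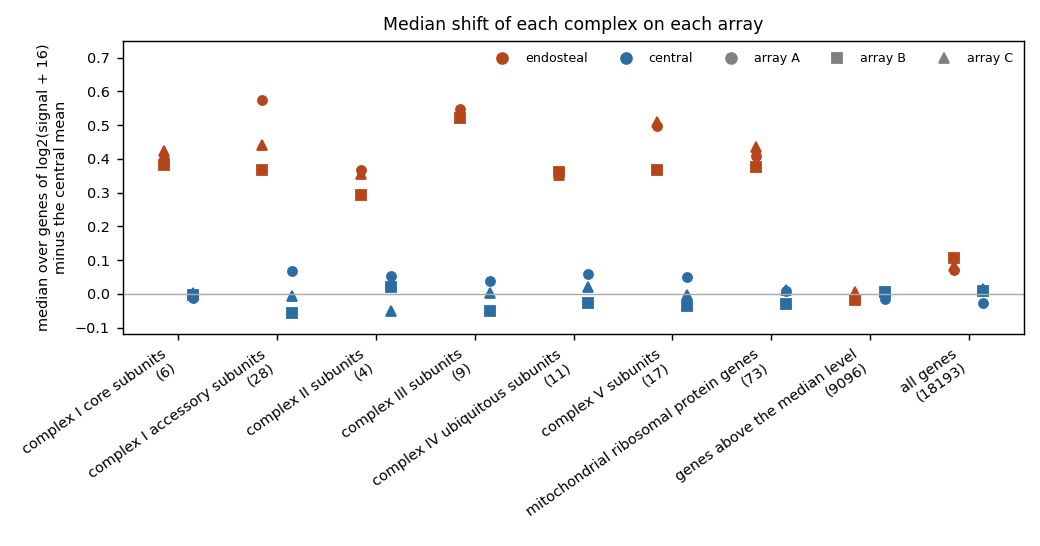
Median shift from the central mean, on the log2(signal + 16) scale, of each complex on each array, with mitochondrial ribosomal protein genes, genes above the median level and all genes for comparison. Endosteal arrays lie left of central arrays in each group; those of complex III lie between 0.52 and 0.55, whereas for genes above the median level they lie between -0.02 and 0.01.

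Genes that serve the respiratory chain were set beside its subunits. Slc25a4, the adenine nucleotide carrier of muscle and heart, had 6854, 4829 and 4918 on endosteal arrays A to C, against 1879, 2463 and 2018 on central arrays, a change of 1.37 (adjusted p = 0.0160). Slc25a5, the carrier of most other cells, had 17864, 19650 and 18994 on the endosteal arrays, against 13776, 13002 and 13816 on the central arrays, a change of 0.48 (adjusted p = 0.0545). Both lay above the central arrays on every endosteal array, and of 7 carriers and outer membrane channels 3 were called higher, the others being Vdac1 (0.77, adjusted p = 0.0193) and Vdac3 (0.57, adjusted p = 0.0400).

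Of 17 genes for mitochondrial fatty acid oxidation 4 were called higher, at a median change of 0.48: Hadh (0.96), Etfb (0.83), Echs1 (0.70) and Acads (0.54). Hadh, which oxidises hydroxyacyl-CoA, had 4276, 3119 and 3746 on endosteal arrays A to C, against 1662, 1873 and 2145 on central arrays, so its groups lay apart. Of 16 tricarboxylic acid cycle genes 2 were called higher, at a median of 0.44: Idh3a, a subunit of isocitrate dehydrogenase, with a change of 0.76 and Mdh2, malate dehydrogenase, with 0.67. Ogdh and Dlst, which encode parts of the 2-oxoglutarate dehydrogenase complex, had all endosteal arrays below the central ones but were not called (change -0.28 for each, adjusted p = 0.198 and 0.186).

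The 17 assembly factors of cytochrome c oxidase had a median change of 0.16, with 0 called by limma. For 4 of the 17 every endosteal array was above every central array. That share is near the 22.3% of all genes and 26.2% of genes above the median level. Of 16 regulators of mitochondrial biogenesis, 0 were called higher and 1 lower, at a median of -0.12. That gene was Mef2d, a transcription factor of muscle and blood cells, which had 1213, 1444 and 1475 on endosteal arrays A to C, against 2196, 2629 and 2585 on central arrays (change -0.84, adjusted p = 0.0254). The mitochondrial ribosomal protein genes, which serve mitochondrial translation, were taken as symbols of Mrpl or Mrps followed by a number only, so symbols ending in a letter were left out. The 73 genes so taken had a median change of 0.41, with 12 called higher and 0 lower. The chain's median of 0.43 was thus near that of another mitochondrial gene group.

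The size of the shift depended on how the arrays were scaled. Under poly-A control centring, which called 67.2% of all genes and 75 of the 76 higher, the median of all genes moved to 1.10 and that of the 76 to 1.43, and when array medians were set equal they were -0.17 and 0.16. The distance between these medians was 0.33 under each of these scalings and as deposited, and 0.37 after quantile normalisation. Centring shifts every gene on an array by the same amount, so it could not change this distance. Only quantile normalisation could. The distance from genes above the median level was likewise fixed at 0.44 under each scaling by 1 factor per array, and was 0.40 after quantile normalisation. Equal array medians left 3 of the 76 called, Atp5g1, Ndufc1 and Uqcr11, against a share of 5.29% of all genes called higher.

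**Figure D4:**
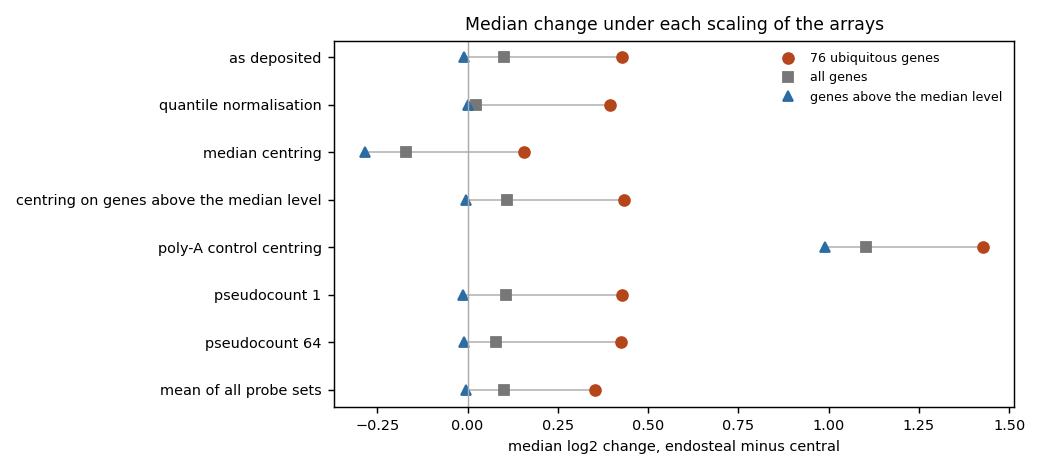
Median log2 change (endosteal minus central) of the 76 ubiquitous respiratory chain genes, of all genes and of genes above the median level under each scaling, pseudocount or choice of probe sets. The 76 genes lie right of both comparison sets in every line. Centring moves all medians of a line alike, so the centred lines repeat the spacing as deposited. The whole line shifts to 1.43 for the 76 under poly-A control centring and to 0.16 under median centring.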

How the data were processed

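RNA was measured on 6 Affymetrix mouse arrays, 1 per sample. The authors deposited 1 linear intensity per array for 45101 probe sets; the software that made these signals is not given in the sources used here. Every array had a mean signal of 500.0 once the highest and lowest 2% were trimmed, and the median signal was 120 to 131 on endosteal arrays and 97.2 to 106 on central arrays. Signals below 16 made up 15.9% to 20.1% of an array. The files hold no detection calls, and precision is limited by the number of arrays.

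Gene names came from the platform annotation and were checked against RefSeq on GRCm38.p6 by gene identifier (34741 of 34945 single-gene probe sets matched). Each gene was represented by its brightest single-gene probe set, which gave 18193 genes; 932 probe sets naming several genes were left out. The median level is the median of the genes' mean signals, 226. Log2(signal + 16) was compared between endosteal and central arrays with limma 3.58.1 in R 4.3.3 (lmFit and eBayes, region as the only term, two-sided), with Benjamini-Hochberg adjustment over all genes and a threshold of 0.05. Motifs and figures were made in Python 3.11.15. The procedure was tested on simulated data.

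The members, gene lists and tests were chosen with earlier results of these data known. Named with values are the tissue isoforms and their paralogs, up to 3 called genes and the brightest gene of each complex, members of small counts, and up to 3 called genes in each direction of each pathway list. Acads was added because it completes a count of 4. Ckmt2, Col1a1, Myl4, Dio2, Elovl3, Lipe, Retn, the 3 muscle genes of another array order and probe sets that disagree were chosen after their values were seen. Of the members, 75 of 92 had a promoter window. The 6 arrays came from 3 mice, so regions share animals, but the labels do not say that a letter stands for 1 mouse; p-values measure the spread between these samples. The correlation of deviations from the region means between same-lettered arrays A, B and C was 0.05, 0.04 and 0.01 using all genes, or 0.25, 0.12 and 0.08 using those above the median level. Alternatives were other pseudocounts (1 and 64), scalings, probe set rules, filters and variance models, the letter as a block, and leaving out each array.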

Additional observations from a re-analysis of the deposited data

How the results depend on the processing

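The letter as a replicate block treats same-lettered arrays as pairs, which the labels do not state. That block left 0 of the 76 ubiquitous genes and 1 of the 3 muscle isoforms called (Cox6a2 1.57, adjusted p = 0.101, and Cox8b 5.10, adjusted p = 0.0575, were lost). The count of 24 became 3 with median centring (5.29% of all genes), 9 with the mean of all probe sets (6.11% of all genes), and 9 genes, 8 of them among the 24, with at least 1 called probe set when each probe set was tested on its own, an alternative chosen after seeing the data. It became 75 with poly-A control centring (67.2% of all genes), 51 among genes above the median level (18.4%) and 56 with an intensity trend in the variance (12.2%). Leaving out 1 array gave 0 to 5 called. Without central array A, B or C the counts were 1, 0 and 0 of the 76, against 3.47%, 3.02% and 4.01% of all genes. Without endosteal array A, B or C they were 3, 3 and 5 of the 76, against 4.22%, 3.68% and 5.10% of all genes. With any central array left out, the 76 were thus called less often than all genes. The median log2 change of the 76, 0.43, was 0.16, 1.43 and 0.35 with median centring, poly-A centring and the mean of all probe sets, and 0.40 to 0.45 when 1 array was left out. Cox6a2 ranged from 1.30 to 1.87 with 1 array left out. Pseudocounts of 1 and 64, quantile normalisation, a random letter term and centring on bright genes, the last 2 chosen after seeing the data, gave 19, 34, 19, 32 and 23 called. The shares of all genes called higher in these fits were 6.33%, 10.2%, 6.39%, 9.33% and 8.09%, in the same order. The 3 muscle isoforms and their differences from the paralogs kept their direction under every alternative run.

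Of the 76 genes, 16 turned sign with median centring, 4 with poly-A centring, 2 with quantile normalisation and 6 with the mean of all probe sets. Among the genes named above, tissue isoforms and assembly factors included, those that turned with median centring were Cox6a1 (-0.14), Cox7a2l (-0.17), Cox8a (-0.061), Cox6b2 (-0.13), Cox8c (-0.16), Ndufa1 (-0.12) and Ndufaf8 (-0.088). With poly-A centring they were Ndufs8 (0.89), Ndufb4 (0.49), Sdhc (0.99) and Uqcrc1 (0.98). With quantile normalisation they were Cox6a1 (-0.17) and Sdhc (0.035), and with the mean of all probe sets Cox8a (-0.30), Cox8c (-0.38), Ndufs8 (0.34) and Sdhc (0.028). Leaving out 1 array gave -0.12 to 0.44 for Cox8c, -0.28 to 0.048 for Ndufs8, -0.076 to 0.10 for Sdhc and -0.067 to 0.050 for Uqcrc1. The causes were not tested.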
